A study of Mus musculus with 24 samples.

Results

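The genes described here are 44 mouse genes of DNA repair and the DNA damage response. They were chosen by name for their textbook roles, with earlier results of these data known. Their symbols were matched to the Ensembl gene identifiers of the deposited count tables, where all 44 were found among 37991 genes. 11 belong to base excision repair, 6 to single-strand break repair, 11 to nucleotide excision repair and 14 to double-strand break repair, and the last 2 are the mismatch repair gene Msh6 and the direct-reversal gene Mgmt. The RNA came from whole cerebellum of male C57BL/6J mice aged 7 or 79 weeks, an inbred laboratory strain, with 2 libraries at each age and no treatment. It was extracted with Trizol, and the Universal Plus mRNA-Seq kit was used to prepare the libraries from polyadenylated RNA. The series holds 24 samples, of which 20 are genomic DNA libraries that were not analysed here. The labels do not state whether the 2 libraries at an age are from different animals. All p-values therefore reflect only the variation among these libraries, part or all of which may be technical.

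Base excision repair removes single damaged bases: a DNA glycosylase cuts out the base, an endonuclease opens the strand at the empty site, and a polymerase and a ligase fill and seal it. Single-strand break repair uses the same late steps and is directed by poly(ADP-ribose) polymerases, which mark the break and call in Xrcc1 and Lig3, while nucleotide excision repair removes bulky lesions as a short oligonucleotide. Double-strand breaks are sensed by Atm and the Mre11a, Rad50 and Nbn complex and are joined by non-homologous end joining, the route open to neurons that no longer divide, or copied from the sister DNA by homologous recombination. Inherited mutations of Aptx, Tdp1 or Atm in people cause ataxia with cerebellar degeneration.

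The 4 libraries held 16367656 and 21124608 counts in genes at 7 weeks and 18901921 and 22826993 at 79 weeks. At these depths 3 counts, used as the limit of detection, correspond to 0.131 to 0.183 CPM (the normalised read count, scaled to a fixed library total), which covers counting error only. Summed over genes, the libraries of an age differed by more than sampling noise, with a chi-square per degree of freedom of 18.5 at 79 weeks and 6.45 at 7 weeks. Genes with very unequal counts weigh heavily in that sum, such as the choroid plexus marker Ttr (97720 and 50 counts at 79 weeks). The typical gene was not more variable at 79 weeks. Over all tested genes the median log2 difference between replicates, whatever its sign, was 0.106 there and 0.109 at 7 weeks. Several lists of cell type markers moved with age. Of 8 markers each, 5 were lower at 79 weeks for granule neurons (summed 6584 to 6655 CPM at 7 weeks and 5231 to 5465 at 79 weeks), 5 for Purkinje cells (10868 to 10932 and 8981 to 9299) and 5 for myelinating oligodendrocytes (5558 to 5915 and 3527 to 4985). Among 8 microglial markers 6 were higher (102.2 to 113.8 and 183.7 to 226.0 CPM). Replicate 1 at 79 weeks stood apart in choroid plexus markers, which summed to 5345 CPM there, 38.7 in replicate 2 and 16.2 to 29.7 at 7 weeks. No marker of these lists was at 0 in all 4 libraries. The part of these shifts in the results below was not tested, and in bulk tissue fewer cells of a type and less RNA per cell cannot be told apart.

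Only Parp1 passed the test among the 43 repair genes with enough counts to be tested, and it was lower at 79 weeks. No member was called higher by this test. Parp1 is the main poly(ADP-ribose) polymerase, the enzyme that senses DNA breaks. Calls came from edgeR's quasi-likelihood test with a Benjamini-Hochberg adjusted p under 0.05 over all 15292 genes tested. That 1 call of 43 (2.33%) stood beside 8.84% of all genes called, 4.17% higher and 4.68% lower. At an unadjusted p under 0.05 there were 7 members (16.3%, against 26.7% of all genes). DESeq2 and limma-voom each called 1 member as well (8.44% and 7.93% of all genes).

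The count of members called moved with the analysis, and so did the count over all genes. With library size scaling 5 members were called (9.06% of all genes), and with no filter on low counts 6 (13.1%). A filter of 1 CPM in 2 libraries gave 3 (10.2%) and robust dispersion 5 (11.4%). A replicate block gave 1 (9.13%), and 5 (13.2%) with the replicate numbers crossed. Leaving out replicate 1 or replicate 2 at 7 weeks, edgeR called 0 members, with 0 genes (0%) and 175 genes (1.11%) called in all. Without replicate 1 at 79 weeks it called 2 members (9.96% of all genes), and without replicate 2 it called 4 (15.4%). DESeq2 called no member with any 1 library left out. It then called 1.45% and 2.66% of all genes without the 7-week libraries and 2.39% and 4.15% without the 79-week ones.

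The log2 fold changes of the 43 members had a median of 0.08 on the log2 scale (79 weeks minus 7 weeks), with 28 above 0 and 15 below, and quartiles of -0.07 and 0.16. All tested genes had a median of 0.01, with 7907 above 0 and 7385 below, and quartiles of -0.14 and 0.20. The median size of the change, whatever its sign, was 0.13 for the members and 0.16 for all genes. For 29 members (67.4%) the 95% interval of the change lay within 0.5 of 0, as it did for 56.1% of all genes. The 2 libraries of one age did not overlap those of the other for 28 members (18 higher and 10 lower at 79 weeks), or 65.1%, beside 57.7% of all genes. Of all genes, 29.1% were higher and 28.7% lower at 79 weeks without overlap. Gene lengths were not used here, so CPM levels are compared between ages and never between genes.

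**Figure D1:**
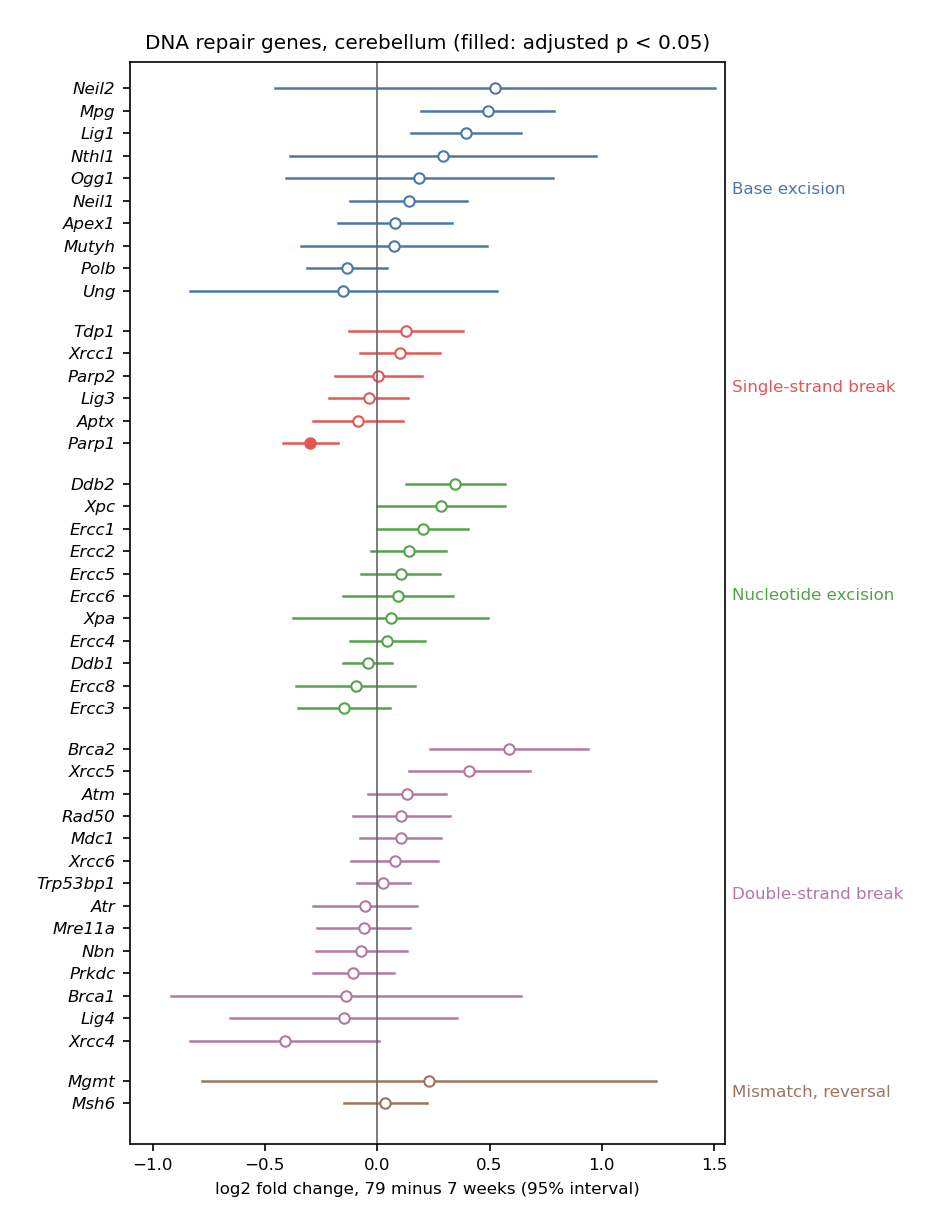
Log2 fold change of CPM, 79 weeks minus 7 weeks (x axis), for each of the 43 tested repair genes (y axis, grouped by pathway), with points for the edgeR estimate and bars for its 95% interval. Parp1, at -0.30, is the only gene that passed an adjusted p of 0.05, and Brca2, at 0.59, is the highest.

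Single-strand break repair held the one member called lower. Parp1 (ENSMUSG00000026496) measured 109.98 and 109.79 CPM in the 2 libraries at 7 weeks and 89.2 and 89.6 at 79 weeks. The replicates of each age were nearly equal and both 79-week libraries lay below both 7-week ones. At 1722 to 2275 counts per library, the replicates were closer than counting error alone would usually leave them, so their SD understates the error. Its mean went from 109.88 ± 0.134 to 89.4 ± 0.306 CPM (SD, n = 2 each), a decrease of 18.6%, and its log2 fold change was -0.30 ± 0.05 (SE, 95% interval -0.42 to -0.17; edgeR adjusted p = 0.0184). Over 19 alternative analyses the change stayed between -0.31 and -0.24 on the log2 scale, and 13 of them called it. Leaving out replicate 1 or 2 at 7 weeks ended the call (-0.30 with adjusted p = 0.152, and -0.30 with 0.0992), and without replicate 1 at 79 weeks, the library with choroid plexus markers, the change was -0.29 (adjusted p = 0.0294, edgeR). DESeq2 with any 1 library left out did not call it (adjusted p of 0.234 to 0.526). The summed granule neuron, Purkinje cell and myelinating oligodendrocyte markers given above were lower in the same libraries. Any link of these markers to Parp1 was not tested.

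None of the other 5 genes of single-strand break repair was called. Parp2, the second DNA-damage-dependent polymerase of this family, measured 29.0 and 28.1 CPM at 7 weeks and 29.2 and 28.0 at 79 weeks. Its libraries overlapped between ages, and its log2 fold change of 0.00 had a 95% interval from -0.19 to 0.20 (edgeR adjusted p = 0.979). Xrcc1, the scaffold that Parp1 activity recruits, was at 42.2 and 39.8 CPM and then 44.9 and 43.1, without overlap. Its log2 fold change was 0.10 (95% interval -0.08 to 0.28, edgeR adjusted p = 0.446). Lig3, the ligase bound to Xrcc1, had a log2 fold change of -0.04 (adjusted p = 0.787). Aptx and Tdp1, which clean blocked DNA ends before ligation, had -0.09 and 0.13 (adjusted p of 0.569 and 0.503). Their 95% intervals ran from -0.29 to 0.11 and from -0.13 to 0.38, and Aptx was lower at 79 weeks without overlap. All 6 genes had a 95% interval within 0.5 of 0, and the median of the 6 was -0.02.

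The promoter of Parp1 is shown because it belongs to the one member that was called. The 250 bases before its RefSeq start (build GRCm38.p6) are given with matches to the SP1 motif GGGCGG, on either strand, in capitals.
Parp1, chr1:180568641-180568890, + strand: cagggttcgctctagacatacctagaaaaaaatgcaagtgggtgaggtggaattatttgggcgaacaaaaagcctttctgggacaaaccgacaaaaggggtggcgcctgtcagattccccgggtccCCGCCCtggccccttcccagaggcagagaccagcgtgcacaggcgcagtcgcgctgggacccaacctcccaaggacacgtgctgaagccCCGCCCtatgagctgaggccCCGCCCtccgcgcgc
The window held 3 of these matches, all on the reverse strand as CCGCCC, and 1 more began 10 bases after the start. Counting on to 50 bases past the start, the promoter had 20 CpG dinucleotides. No TATAAA was found in these 300 bases.

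Base excision repair had no called gene among 10 tested, by edgeR, DESeq2 or limma-voom. Each of them found 2 at an unadjusted p under 0.05 (20% by edgeR, beside 26.7% of all genes). Of the 10, 8 had a log2 fold change above 0, beside 7907 of all 15292 genes. The median of the 10 was 0.16. Relative to the 7-week mean the median was 0.23 in replicate 1 at 79 weeks and 0.09 in replicate 2, and the median change was 0.11 without replicate 1 (no gene called by edgeR) and 0.30 without replicate 2 (2 genes called higher). The 2 genes nearest to the threshold were Mpg and Lig1.

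Mpg (ENSMUSG00000020287), the glycosylase that removes alkylated bases such as 3-methyladenine, measured 11.4 and 12.4 CPM at 7 weeks and 18.1 and 15.4 at 79 weeks. The ages did not overlap, with the highest value in replicate 1 at 79 weeks. Its log2 fold change was 0.49 ± 0.13 (SE, 95% interval 0.20 to 0.79; edgeR adjusted p = 0.0552), or 1.41-fold. Without replicate 1 at 79 weeks it was 0.37 (adjusted p = 0.133), and without replicate 2 it was 0.60 (adjusted p = 0.00605). Mpg overlaps Nprl3 in the genome, and the strand setting of the counting is not given in the sources used here.

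Lig1 (ENSMUSG00000056394), the ligase that joins Okazaki fragments and long repair patches, measured 14.5 and 15.5 CPM at 7 weeks and 20.6 and 19.0 at 79 weeks. Both older libraries lay above both younger ones. Its log2 fold change was 0.40 ± 0.10 (SE; edgeR adjusted p = 0.058), with 0.34 and an adjusted p of 0.136 without replicate 1 at 79 weeks. It overlaps Zswim9. The summed markers of microglia, endothelium, ependyma, choroid plexus, lymphocytes and red blood cells were higher in both of these older libraries too. Any link of these markers to Lig1 was not tested.

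None of the remaining glycosylases passed the test. Neil1, which removes oxidised pyrimidines, measured 14.5 and 14.1 CPM at 7 weeks and 16.6 and 14.9 at 79 weeks, without overlap, and had a log2 fold change of 0.14 (95% interval -0.12 to 0.40, edgeR adjusted p = 0.469). Ogg1, which removes 8-oxoguanine, had 0.19 (adjusted p = 0.686), with 3.18 and 3.14 CPM at 7 weeks and 4.14 and 3.07 at 79 weeks, so the ages overlapped. Mutyh, which removes adenine opposite 8-oxoguanine, had 0.07, and Ung, which removes uracil, had -0.15, both with overlapping ages. Nthl1 and Neil2, at 1.68 to 2.49 and 0.561 to 0.864 CPM, had 0.29 and 0.52 with adjusted p of 0.569 and 0.473. Neil3 had counts of 0, 1, 0 and 1 and did not pass the filter on low counts. Polb, the gap-filling polymerase, measured 65.1 and 61.5 CPM at 7 weeks and 60.4 and 54.9 at 79 weeks, a change of -0.13 (adjusted p = 0.306). Apex1, the endonuclease of the empty site, had 0.08 with a 95% interval from -0.17 to 0.33.

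**Figure D2:**
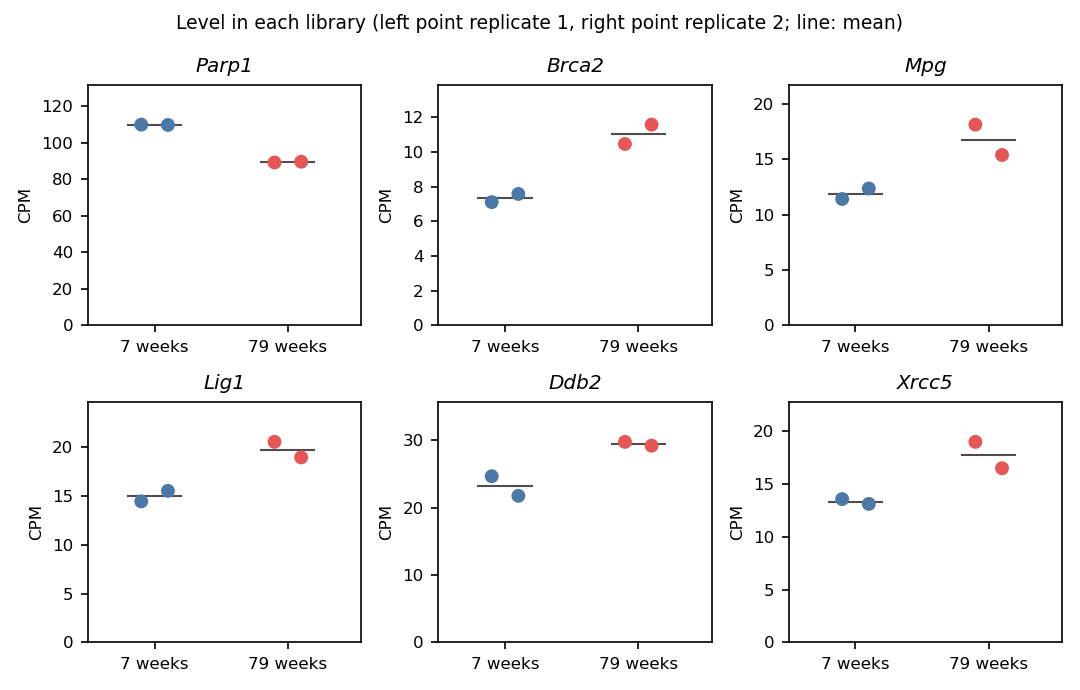
CPM in each library (y axis) at 7 and 79 weeks (x axis) for members nearest to or past the test threshold, with points for single libraries (replicate 1 left, replicate 2 right) and a line for the mean of each age. Parp1 is lower in both 79-week libraries (89.2 and 89.6 against 109.98 and 109.79), and Brca2, Mpg, Lig1, Ddb2 and Xrcc5 are higher in both without passing the test.

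Mpg is the base excision repair gene nearest to the threshold, and the 250 bases before its RefSeq start are shown with the SP1 motif GGGCGG and the NFY motif CCAAT, on either strand, in capitals.
Mpg, chr11:32226255-32226504, + strand: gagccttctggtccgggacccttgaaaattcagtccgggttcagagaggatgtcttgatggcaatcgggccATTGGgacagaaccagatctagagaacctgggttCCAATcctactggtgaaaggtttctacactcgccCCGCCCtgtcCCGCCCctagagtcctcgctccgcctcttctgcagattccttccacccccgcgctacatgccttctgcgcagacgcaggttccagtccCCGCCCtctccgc
The SP1 letters occurred 3 times here and the NFY letters 2 times, and the 300-base window around the start held 22 CpG dinucleotides.

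Nucleotide excision repair also had no called gene, among 11 tested, by edgeR, DESeq2 or limma-voom. At an unadjusted p under 0.05 they found 2, 1 and 2 genes (18.2% by edgeR, beside 26.7% of all genes). The median log2 fold change was 0.09, and it was 0.05 without replicate 1 at 79 weeks. With all 4 libraries 8 genes were above 0 and 3 below, beside 7907 of all 15292 genes above 0. The genes with the highest changes were the recognition factors Ddb2 and Xpc, which find ultraviolet and other distorting lesions anywhere in the genome.

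Ddb2 (ENSMUSG00000002109), the lesion-binding subunit of the UV-DDB complex, measured 24.7 and 21.8 CPM at 7 weeks and 29.8 and 29.2 at 79 weeks. Both 79-week libraries lay above both 7-week libraries. Its log2 fold change was 0.35 ± 0.09 (SE, 95% interval 0.13 to 0.57; edgeR adjusted p = 0.0638), and 4 of 19 alternatives called it. Its partner Ddb1, the adaptor of the Cul4 ubiquitin ligase, was at 286.3 and 283.7 CPM and then 278.9 and 274.2, a change of -0.04 (95% interval -0.15 to 0.07). Ddb2 overlaps Acp2. Xpc measured 26.3 and 21.3 CPM at 7 weeks and 30.6 and 27.2 at 79 weeks, with a log2 fold change of 0.29 (adjusted p = 0.186).

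The transcription-coupled recognition factors Ercc6 and Ercc8, which act where RNA polymerase stalls, had 0.09 and -0.10, and their ages overlapped. Ercc2 and Ercc3, the helicases of TFIIH that open the DNA, had 0.14 and -0.15 (edgeR adjusted p of 0.264 and 0.334). Their ages did not overlap, in opposite directions: Ercc2 was at 47.4 and 45.5 and then 52.2 and 50.1 CPM, and Ercc3 at 38.4 and 39.4 and then 33.0 and 37.2. Ercc1, the partner of the Ercc4 nuclease, measured 20.4 and 20.3 CPM and then 23.6 and 23.2, a change of 0.20 (adjusted p = 0.191). The nucleases Ercc4 and Ercc5 had 0.05 and 0.10, and Xpa, which checks the lesion, had 0.06. Each of the 6 unwinding, verification and incision genes had a 95% interval within 0.5 of 0.

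**Figure D3:**
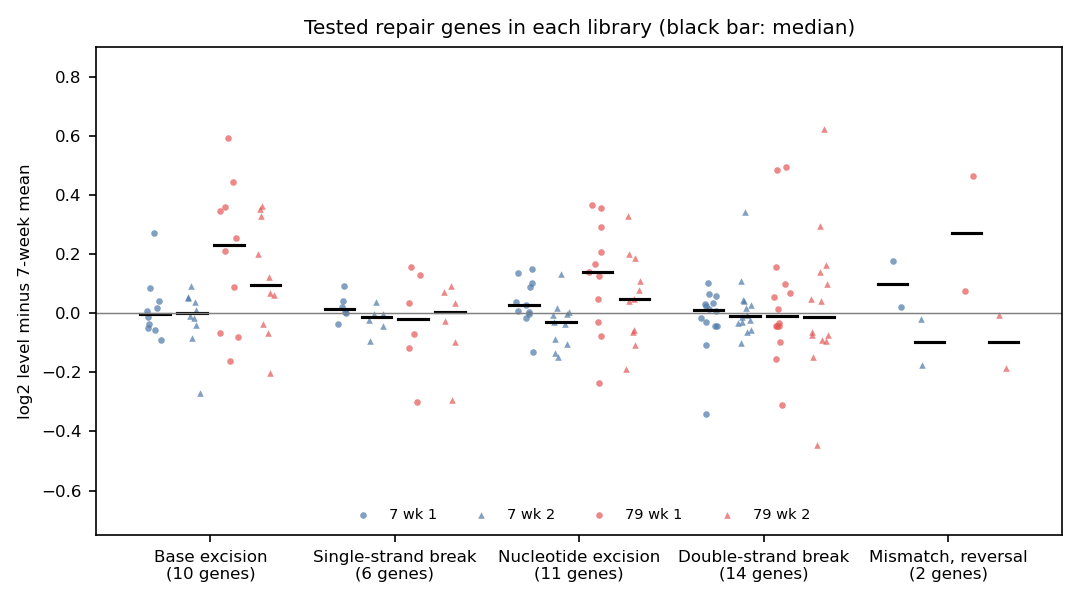
Log2 level minus the 7-week mean (y axis) of each tested gene in each of the 4 libraries (colours and symbols), by repair pathway (x axis), with black bars for the median. Base excision repair is highest in replicate 1 at 79 weeks (0.23) and lower in replicate 2 (0.09), and double-strand break repair is at -0.01 in both.

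Double-strand break repair had 14 tested genes and none called by edgeR, DESeq2 or limma-voom. They found 2, 2 and 3 at an unadjusted p under 0.05 (14.3% by edgeR, beside 26.7% of all genes). There were 7 genes on each side of 0, with a median of -0.01. The highest changes were those of Brca2 and Xrcc5, and the lowest that of Xrcc4. Without replicate 1 at 79 weeks 1 gene, Brca2, was called higher.

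Brca2 (ENSMUSG00000041147), a tumour suppressor needed for homologous recombination, measured 7.10 and 7.58 CPM at 7 weeks and 10.5 and 11.6 at 79 weeks. Both 79-week libraries were above both 7-week libraries. Its log2 fold change was 0.59 ± 0.15 (SE, 95% interval 0.23 to 0.94; edgeR adjusted p = 0.0543), and it was 0.66 with an adjusted p of 0.0185 without replicate 1 at 79 weeks. Over 19 alternatives, 6 called it. Brca1, which acts before Brca2 in the same pathway, was at 1.25, 1.35, 1.24 and 1.12 CPM, and its change of -0.14 had a 95% interval from -0.92 to 0.64. Markers of dividing cells, in which homologous recombination is used most, summed to 2.61 to 3.61 CPM at 7 weeks and 1.99 to 2.07 at 79 weeks, with at most 15 counts for any of them in a library. Only 2 of these 8 markers had enough counts to be tested, and neither was called. Any link of these markers to Brca2 was not tested.

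The promoter of Brca2, the member with the highest log2 fold change, differed in its letters from that of Parp1. Capitals mark TATAAA, the E2F motif TTTCCCGC (here on the reverse strand) and the CREB motif TGACGTCA in the 250 bases before the RefSeq start.
Brca2, chr5:150522371-150522620, + strand: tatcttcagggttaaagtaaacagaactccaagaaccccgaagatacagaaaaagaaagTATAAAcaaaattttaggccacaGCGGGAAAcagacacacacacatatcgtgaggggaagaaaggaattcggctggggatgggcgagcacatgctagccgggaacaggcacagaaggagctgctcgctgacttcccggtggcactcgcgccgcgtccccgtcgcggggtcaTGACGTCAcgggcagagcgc
No GGGCGG was found in the 300 bases around this start, and it had 25 CpG dinucleotides. The CREB letters began 20 bases before the start.

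Among the genes of non-homologous end joining, Xrcc5 (Ku80; ENSMUSG00000026187) measured 13.6 and 13.1 CPM at 7 weeks and 19.0 and 16.5 at 79 weeks. The ages did not overlap. Its log2 fold change was 0.41 ± 0.12 (SE, 95% interval 0.14 to 0.68; edgeR adjusted p = 0.0706). It was 0.31 (adjusted p = 0.206) without replicate 1 at 79 weeks and 0.50 (adjusted p = 0.0159) without replicate 2. Xrcc6 (Ku70), the other subunit of the ring that holds broken ends, was at 27.6 and 28.8 and then 29.3 and 30.2 CPM, a change of 0.08 (95% interval -0.11 to 0.27).

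Prkdc, the kinase that Ku recruits, had a log2 fold change of -0.11 (edgeR adjusted p = 0.419). Xrcc4, the cofactor of Lig4, measured 7.29 and 8.54 CPM at 7 weeks and 6.27 and 5.66 at 79 weeks. Both older libraries were lower, and its change of -0.41 ± 0.18 (SE) did not pass the test (adjusted p = 0.194). Lig4, the ligase of this route, was at 9.66 and 15.8 CPM in the 7-week libraries and at 11.5 and 11.6 in the 79-week ones. Its 7-week replicates lay on both sides of the older pair, with a change of -0.15.

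The sensing and signalling genes had narrow intervals around small changes. All 7 (Atm, Atr, Mre11a, Rad50, Nbn, Mdc1 and Trp53bp1) had a 95% interval within 0.5 of 0, and none had an unadjusted p under 0.05 by edgeR. Atm, the kinase activated by double-strand breaks, measured 43.3 and 41.5 CPM and then 45.4 and 47.4, a change of 0.13 (adjusted p = 0.306). Atr, the kinase activated by single-stranded DNA, had -0.05. The Mre11a, Rad50 and Nbn complex, which holds and trims the ends, had -0.06, 0.11 and -0.07. Trp53bp1, which shields ends from trimming, was at 140.9, 134.6, 139.0 and 141.6 CPM, with a change of 0.03 (95% interval -0.09 to 0.15). Mdc1, the platform that binds marked chromatin at breaks, had 0.10.

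The mismatch recognition gene Msh6 had a log2 fold change of 0.04 with overlapping ages. Mgmt, which takes methyl groups off guanine directly, measured 1.31 and 0.917 CPM at 7 weeks and 1.71 and 0.907 at 79 weeks. Its replicates differed more than its ages, and its change of 0.23 had a 95% interval from -0.78 to 1.24.

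Ratios of partner genes within a library do not depend on scaling between libraries, and 9 pairs were computed as log2 ratios of counts. The Parp1 to Parp2 ratio was 1.92 and 1.97 at 7 weeks and 1.61 and 1.68 at 79 weeks, a change of -0.30. The Parp1 to Xrcc1 ratio was 1.38 and 1.46 and then 0.99 and 1.06, a change of -0.40. Both were lower in each 79-week library than in each 7-week one. The Xrcc5 to Xrcc6 ratio went from -1.02 and -1.13 to -0.63 and -0.87, so the ratio of the 2 Ku subunits, which work as a dimer, was higher in both 79-week libraries. Ddb2 to Ddb1 went from -3.54 and -3.70 to -3.23 and -3.23, and Lig1 to Lig3 from -2.12 and -2.00 to -1.49 and -1.76. Brca2 to Brca1 went from 2.51 and 2.49 to 3.07 and 3.37. In each of these 6 pairs the ages did not overlap, but most of them hold a gene already described as higher or lower, so they repeat those values. Ercc1 to Ercc4 changed by 0.16 and Mre11a to Rad50 by -0.16, again without overlap, while Xrcc4 to Lig4 (-0.31) overlapped between ages. In all, 8 of the 9 pairs did not overlap, beside 55.6% of all pairs that can be formed from 15282 tested genes with a count in every library. The 9 pairs were chosen with the changes of their genes known, and no test of the ratios was made.

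**Figure D4:**
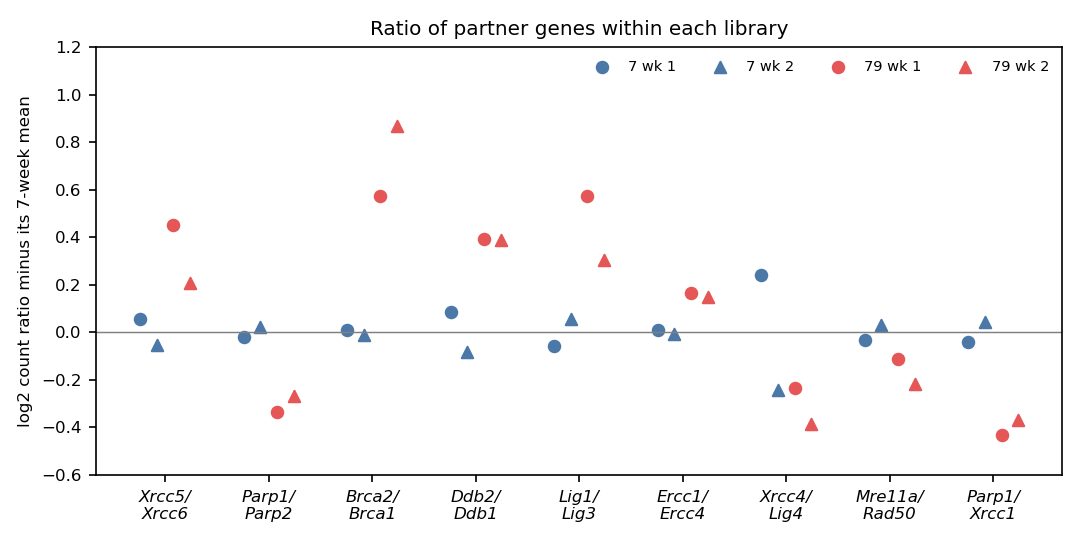
Log2 ratio of the counts of 2 partner genes in each library, minus its 7-week mean (y axis), for 9 pairs (x axis), with a colour and symbol for each of the 4 libraries. Parp1 to Parp2 and Parp1 to Xrcc1 are lower in both 79-week libraries (changes of -0.30 and -0.40), and Xrcc4 to Lig4 overlaps between ages.

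The promoters of the repair genes were compared by their letters with those of all RefSeq genes. Of the 44 members, 36 had an entry in the RefSeq promoter table (GRCm38.p6), with 42 promoters of 300 bases, from 250 before to 50 after the start. Their median number of CpG dinucleotides was 22 (range 2 to 37), compared with 7 over 32851 promoters and 13 over the 21263 of protein-coding genes. The SP1 letters GGGCGG occurred in 29 (69.0%) of the member promoters, in 35.7% of all promoters and in 46.2% of those of protein-coding genes.

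The NRF1 letters GCATGCGC were found in 8 member promoters (19.0%), those of Atm, Ercc6, Lig1, Lig4, Parp2, Tdp1, Xpa and Xrcc5, compared with 2.71% of all promoters and 3.52% of coding ones. The E2F letters TTTCCCGC were found in 4 (9.52%), those of Brca2, Mdc1, Msh6 and Xrcc6, compared with 1.07% and 1.41%. The second E2F form, TTTGGCGC, was in none, and in 0.514% of all promoters and 0.635% of coding ones. CCAAT, bound by NFY, was in 47.6% of member promoters, 37.4% of all and 38.2% of coding ones. In the same order, the ETS letters CCGGAAGT were in 9.52%, 3.89% and 5.15%, and the CREB letters TGACGTCA in 4.76%, 1.79% and 2.23%. AAGATGGC, bound by YY1, was in 2.38%, 2.75% and 3.05%. TATAAA was in 7.14%, 13.6% and 12.6%, and the AP-1 letters TGANTCA in 0%, 7.81% and 6.99%. All motifs were searched on both strands, and none contains another. Of the 35 tested members with a promoter entry 24 had a log2 fold change above 0. So had 17 of the 27 with the SP1 letters, 7 of the 8 with the NRF1 letters and all 4 with TTTCCCGC. With CCAAT it was 15 of 19, with the ETS letters 3 of 4 and with the CREB letters 1 of 2. With AAGATGGC it was 1 of 1 and with TATAAA 3 of 3. These counts are a description, and the genes were not tested as groups.

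Beyond the 44, 99 of 104 other listed repair and damage response genes were tested. Of these 2 were called higher and 2 lower (4.04%, beside 8.84% of all genes). An unadjusted p under 0.05 by edgeR was found for 23 (23.2%, beside 26.7% of all genes). Parp3, a further polymerase of the Parp family that acts at double-strand breaks, rose from 8.72 and 9.75 CPM to 15.8 and 13.0, a log2 fold change of 0.64 ± 0.15 (SE; edgeR adjusted p = 0.0423). That call was lost with DESeq2 (adjusted p = 0.0538), limma-voom (0.0579), a replicate block (0.0512), without replicate 1 at 79 weeks (0.0648) and without replicate 1 or 2 at 7 weeks (0.272 and 0.150). Uvssa, a factor of transcription-coupled nucleotide excision repair, rose from 23.0 and 27.5 CPM to 39.8 and 35.9, a change of 0.58 ± 0.11 (SE; adjusted p = 0.022). Of 18 tested genes that Trp53 activates after damage 2 were called lower and none higher (11.1%, beside 8.84% of all genes, 4.68% lower). A log2 fold change above 0 was found for 11 of the 18, beside 7907 of all 15292 genes. Cdkn1a, the p21 inhibitor of cyclin-dependent kinases, went from 28.5 and 30.5 CPM to 19.1 and 20.8, a change of -0.56 ± 0.09 (SE; adjusted p = 0.0158). Btg2, an antiproliferative gene of this list named after its values were seen, had 15.3 and 15.8 CPM and then 33.4 and 20.9, a change of 0.80 (adjusted p = 0.054). It did not pass the edgeR test but was called higher by DESeq2, with a replicate block and under other alternatives. Zmat3, an RNA-binding protein of the same response, went from 105.2 and 109.6 CPM to 76.7 and 81.3, a change of -0.44 ± 0.06 (SE; adjusted p = 0.00941).

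In Parp3, Uvssa, Cdkn1a and Zmat3 both libraries of one age lay outside those of the other. Without replicate 1 or replicate 2 at 7 weeks, edgeR did not call Uvssa (adjusted p of 0.173 and 0.0648), Cdkn1a (0.119 and 0.0912) or Zmat3 (0.113 and 0.0759). Among 4 further end-joining and 25 homologous recombination and Fanconi genes, none was called by edgeR, DESeq2 or limma-voom. Nor was any of 8 checkpoint and 15 mismatch repair and translesion genes. Of these genes 0, 6 (24%), 0 and 0 had an unadjusted p under 0.05 by edgeR, beside 26.7% of all genes. The lists with a call had larger shares. These were 4 of 11 (36.4%) in base excision and single-strand break repair and 6 of 18 (33.3%) in nucleotide excision repair. Among the genes that Trp53 activates the share was 7 of 18 (38.9%). In the lists with no call, the most abundant genes by count had changes near 0 or not past the test. They were Dclre1c 0.03 and Polm -0.04 in end joining, and Rnf168 -0.07 and Rnf8 0.07 in break signalling. At the checkpoint they were Topbp1 0.01 and Rad17 0.03, and in translesion synthesis Rev3l -0.14 and Rev1 0.15.

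**Figure D5:**
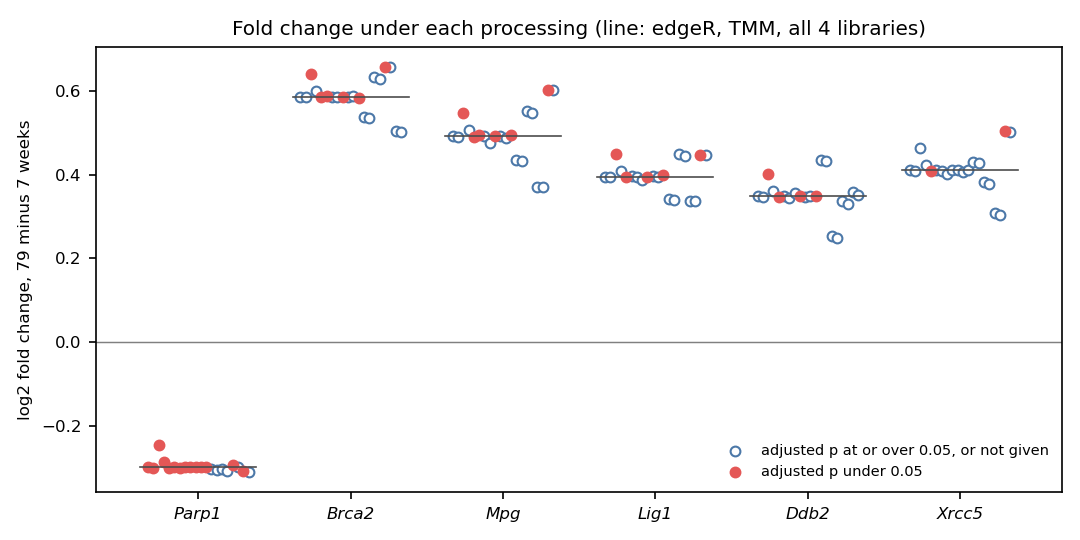
Log2 fold change, 79 weeks minus 7 weeks (y axis), of the 6 repair genes called in at least 1 analysis (x axis), with a point for each of the 19 alternatives and for the analysis described here (also the line), filled where the adjusted p is under 0.05. Parp1 stays between -0.31 and -0.24 and is called in 13, and Brca2, Mpg, Lig1, Ddb2 and Xrcc5 keep their sign and are called in 6 or fewer.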

How the data were processed

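The authors deposited one table of read counts per gene for each of the 4 cerebellum RNA libraries. cutadapt, STAR, HTSeq and the mm9 genome are named per the submitters' processing notes. Versions, the gene annotation and the strand setting were not given in the sources used here. The summary lines of each table were removed, among them reads in no gene (18.7% to 20.4% of all entries), ambiguous reads (0.696% to 0.766%) and reads not aligned uniquely (8.02% to 8.25%).

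Identifiers were matched to symbols in a supplied table (32919 of 37991 genes). Genes with at least 10 counts in enough libraries and 15 in all (filterByExpr in edgeR) were kept, 15292 in total, and tested for 79 against 7 weeks with edgeR 4.0.16 (R 4.3.3) by TMM scaling and the quasi-likelihood test, with Benjamini-Hochberg adjustment over all of them. CPM are TMM-scaled, and intervals are 95% intervals of the fitted change. The biological coefficient of variation was 9.43%. The fitting code was tested on simulated data. Alternatives were other scalings and filters, DESeq2 1.42.0, limma-voom (limma 3.58.1), other edgeR settings, a replicate block and leaving out each library.

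The members, the other gene lists, the markers and the partner pairs were chosen with earlier results of these data known. Members were named whatever their values. Other repair genes were named when called, or as the 2 most abundant of a list with no call. Btg2, named after its values were seen, is the exception. Of the members, 20 overlap another gene in the genome, 12 of them a protein-coding one.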

Additional observations from a re-analysis of the deposited data

How the results depend on the processing

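Of the 43 tested members, 29 kept the sign of their log2 fold change under all 19 alternatives, 14 changed it under at least 1, and 37 were never called. The count of members called, 1 with TMM scaling, was 5 with library size scaling, 6 with no low-count filter, 3 with a filter of 1 CPM in 2 libraries and 5 with robust dispersion, and ranged from 0 to 4 when each library was left out. The lone library then remaining at an age is assumed to vary as the pair at the other age does, and other numbers of genes are tested. The 4 other repair genes called were 13 with no filter and 9 with robust dispersion, and 0 to 9 with a library left out. All genes called numbered 1352 (637 higher, 715 lower), 3051 with no filter, 1446 with the 1 CPM filter, 1746 with robust dispersion, 0 to 2425 (0, 175, 1579, 2425) with a library left out, and then 235, 421, 379 and 654 by DESeq2. Library size scaling gave 901 higher and 484 lower, and moved the members' median from 0.08 to 0.13 and that of all genes from 0.01 to 0.06. The members' median was 0.037 to 0.12 with a library left out, and 0.032 to 0.11 by DESeq2 (0.041 without replicate 1 at 79 weeks).

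Libraries with the same replicate number did not deviate together between ages (Pearson correlation -0.10 over 10190 genes). With the replicate number as a block, 1 member, 4 other repair genes and 1396 genes in all were called. The crossed pairing, added after seeing the data, called 5 members, 9 other repair genes and 2014 genes. The leave-one-out fits with DESeq2 were also added after seeing the data. The cause of these differences was not tested. Counts were lowest for Neil3, Neil2, Mgmt, Brca1 and Nthl1, and the part of depth in their errors was not tested.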
